A study of Mus musculus with 20 samples.

Results

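The miRNAs described here are 10 mature forms from the 6 hairpins of miR-337, miR-431, miR-433, miR-127, miR-434 and miR-136, which lie at the imprinted gene Rtl1. They were chosen by name, not by a measured value, and all 10 were found among the 1481 features measured. They were followed in small RNA libraries of primary mouse cortical neurons, taken at embryonic day 15 and grown for 7 days in culture. The strain of all animals is given as C57BL/6N-Cdr1asem1Nikr, and the neurons carried either the wild-type allele or a knockout of ciRS-7 (Cdr1as), a circular RNA of the brain known for its binding sites for miR-7. Cultures then spent 12 h in normoxia, with 25 mM glucose and 0.2 mM pyruvate at 5% CO2 and 37 °C, or 12 h in oxygen-glucose deprivation (OGD), a culture model of ischaemia, with 1% O2 and without added glucose or pyruvate at 5% CO2 and 37 °C. The 4 groups are wild type in normoxia, wild type after OGD, knockout in normoxia and knockout after OGD, with 5 libraries each, which the submitters describe as biological replicates.

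Rtl1 is a gene derived from a retrotransposon in the Dlk1-Dio3 imprinted domain. It is expressed from the paternal chromosome, while the miRNAs on the opposite strand are made from the maternal chromosome as part of a long noncoding transcript. A miRNA hairpin is cut into a 5p and a 3p arm, and usually one of the arms is kept by Argonaute while the other is largely discarded. Because the miRNAs that face Rtl1 are exact complements of its transcript, they are known to guide its cleavage, and other targets are bound mainly through the seed, bases 2 to 8 of the mature form.

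The mature forms of mouse (mmu) are printed because their seeds and their match to Rtl1 define the group. RefSeq (GRCm38.p6) gave a sequence for all 10, printed 5′ to 3′ with the seed in capitals, in their order along the chromosome.
mmu-miR-337-5p: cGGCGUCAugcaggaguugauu
mmu-miR-337-3p: uCAGCUCCuauaugaugccuuu
mmu-miR-431-5p: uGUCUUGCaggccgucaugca
mmu-miR-433-3p: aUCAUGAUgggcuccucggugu
mmu-miR-127-5p: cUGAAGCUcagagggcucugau
mmu-miR-127-3p: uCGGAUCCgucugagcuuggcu
mmu-miR-434-5p: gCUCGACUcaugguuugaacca
mmu-miR-434-3p: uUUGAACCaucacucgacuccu
mmu-miR-136-5p: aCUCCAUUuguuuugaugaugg
mmu-miR-136-3p: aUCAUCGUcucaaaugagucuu
The 10 seeds are all different, and none of them is shared with another mouse miRNA in the RefSeq table. The members are therefore not a seed family, although they share a locus.

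The 6 hairpins lie on the plus strand of chromosome 12 within 9600 bases. Rtl1 spans chr12:109589193-109600330 on the minus strand (GENCODE M21, GRCm38), and the hairpins of miR-431, miR-433, miR-127, miR-434 and miR-136 all lie opposite its coding exon. The label of the group does not hold for the remaining hairpin in this annotation: Mir337, at chr12:109585789-109585885, ends 3308 bases outside the Rtl1 gene. The sequences show the same division, since 8 of the 10 mature forms were complementary over their full length to the annotated Rtl1 transcript, and those of miR-337 were not.

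**Figure D1:**
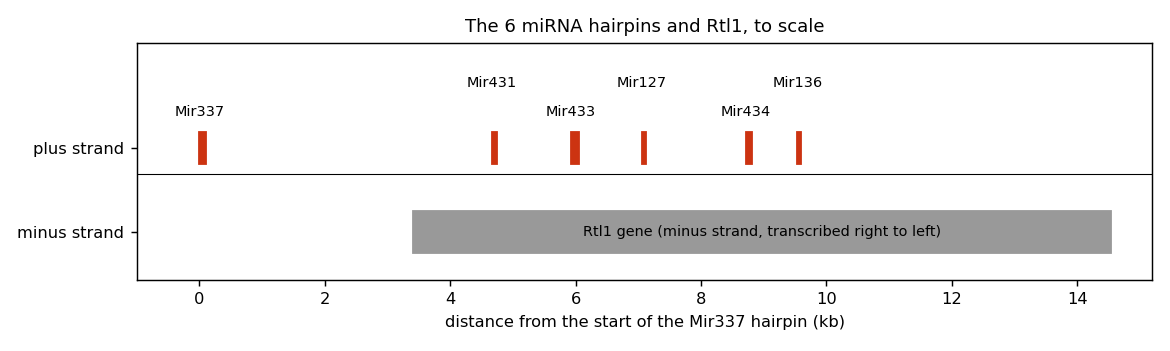
Map of the 6 miRNA hairpins (red, plus strand) and the Rtl1 gene (grey, minus strand), with the distance from the start of the Mir337 hairpin in kb on the horizontal axis. Mir337 lies outside Rtl1, and the other 5 hairpins lie inside it.

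The hairpins of miR-127 and miR-337 are shown because the balance of their arms differed most between conditions. Both mature arms are in capitals.
Mir127, chr12:109592846-109592915: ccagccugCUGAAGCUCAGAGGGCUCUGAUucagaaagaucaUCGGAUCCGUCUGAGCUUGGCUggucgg
Mir337, chr12:109585789-109585885: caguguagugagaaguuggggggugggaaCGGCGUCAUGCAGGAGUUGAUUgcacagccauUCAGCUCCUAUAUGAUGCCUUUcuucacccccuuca
In the first hairpin the 3p arm was the common one and in the second the 5p arm, as the levels below give.

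Levels are in CPM, the reads of a feature scaled to a common library size. Library totals ran from 1160582 to 12477032 reads and moved with the condition: 2492065 to 9117862 in wild-type normoxia, 1160582 to 4374002 in wild-type OGD, 5884616 to 12477032 in knockout normoxia and 1811589 to 3119212 in knockout OGD. A count of 3 reads corresponds to between 0.249 and 2.55 CPM, which covers counting error only. On the first principal component of 423 abundant features (83.0% of the variance), wild-type normoxia replicate 5 stood at -0.88 and the other wild-type normoxia libraries at -14.46 to -13.09, while OGD libraries ran from 7.00 to 15.05, so the members' wild-type OGD values are also given without it. The 5 neuronal miRNAs checked summed to between 288190 and 386490 CPM in each library, most of it miR-9-5p. The others did not move alike with OGD: in wild type miR-124-3p ran from 2739 to 4107 CPM in normoxia and from 5160 to 6484 after OGD, miR-138-5p from 211 to 250.1 and from 368.8 to 541.1, miR-137-3p, with overlap, from 354 to 589.5 and from 566 to 674, and miR-128-3p from 45386 to 81262 and, lower, from 34841 to 44367. In the knockout miR-124-3p ran from 3209 to 4075 and from 4900.1 to 6105 CPM, miR-138-5p from 216 to 259 and from 378 to 475, miR-137-3p from 441 to 642 and from 647 to 809.6, and miR-128-3p, with overlap, from 43501 to 80641 and from 35878 to 48143. In each library 4 markers of microglia and blood summed to between 0.743 and 5.59 CPM, 2 of oligodendrocytes to between 4.39 and 12.8 CPM, and 3 of endothelium and muscle to between 288 and 430.95 CPM. The ranges of the microglia and blood sum were 0.743 to 3.02 CPM in wild-type normoxia, 1.21 to 4.87 in wild-type OGD, 1.56 to 2.33 in knockout normoxia and 1.39 to 5.59 in knockout OGD. Those of the oligodendrocyte sum, in the same order, were 4.53 to 7.55, 5.10 to 10.8, 4.39 to 6.54 and 6.78 to 12.8 CPM, separate between the conditions in the knockout. Most of the oligodendrocyte sum was miR-338-3p. The other marker, miR-219a-5p, was at 0 to 1.39 CPM and overlapped between the conditions in both genotypes. The endothelium and muscle sums were 340.2 to 414, 323.01 to 403, 335 to 430.95 and 288 to 389 CPM. The part of these cells and markers in the results was not tested.

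In normoxia the members differed widely in level, and miR-127-3p was the highest of the 10. Mature forms of 21 or 22 bases are read from end to end, so CPM needs no division by length, but how well each sequence enters a library was not measured. In wild-type neurons in normoxia the mean level was 12662 CPM for miR-127-3p, which ranked 12 among the 1481 features, 6980.5 for miR-434-5p, 3401 for miR-434-3p and 1508 for miR-433-3p. A middle group followed, with means of 549.9 CPM for miR-136-5p, 457 for miR-337-5p, 356 for miR-136-3p and 152 for miR-431-5p. The rarer arms of miR-127 and miR-337 were lowest, at 73.9 CPM for miR-127-5p and 3.02 CPM for miR-337-3p. The libraries of neighbours in this order did not overlap between miR-127-3p and miR-434-5p, between miR-434-5p and miR-434-3p, between miR-434-3p and miR-433-3p, or between any neighbours below miR-136-3p, nor between miR-433-3p and miR-136-5p. They overlapped between miR-136-5p and miR-337-5p and between miR-337-5p and miR-136-3p.

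Summed over the 10 members, the level was 26143 ± 1359 CPM (SD, n = 5) in wild-type normoxia and 21144 ± 2438 CPM after OGD. In the knockout the sums were 26281 ± 1666 CPM in normoxia and 20022 ± 1573 CPM after OGD. As a share of all reads these are 2.60%, 2.11%, 2.65% and 2.01%, and no test was made of a sum over chosen members. miR-127-3p alone made up 48.4%, 48.4%, 49.6% and 49.3% of the members' reads in the same order of groups.

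**Figure D2:**
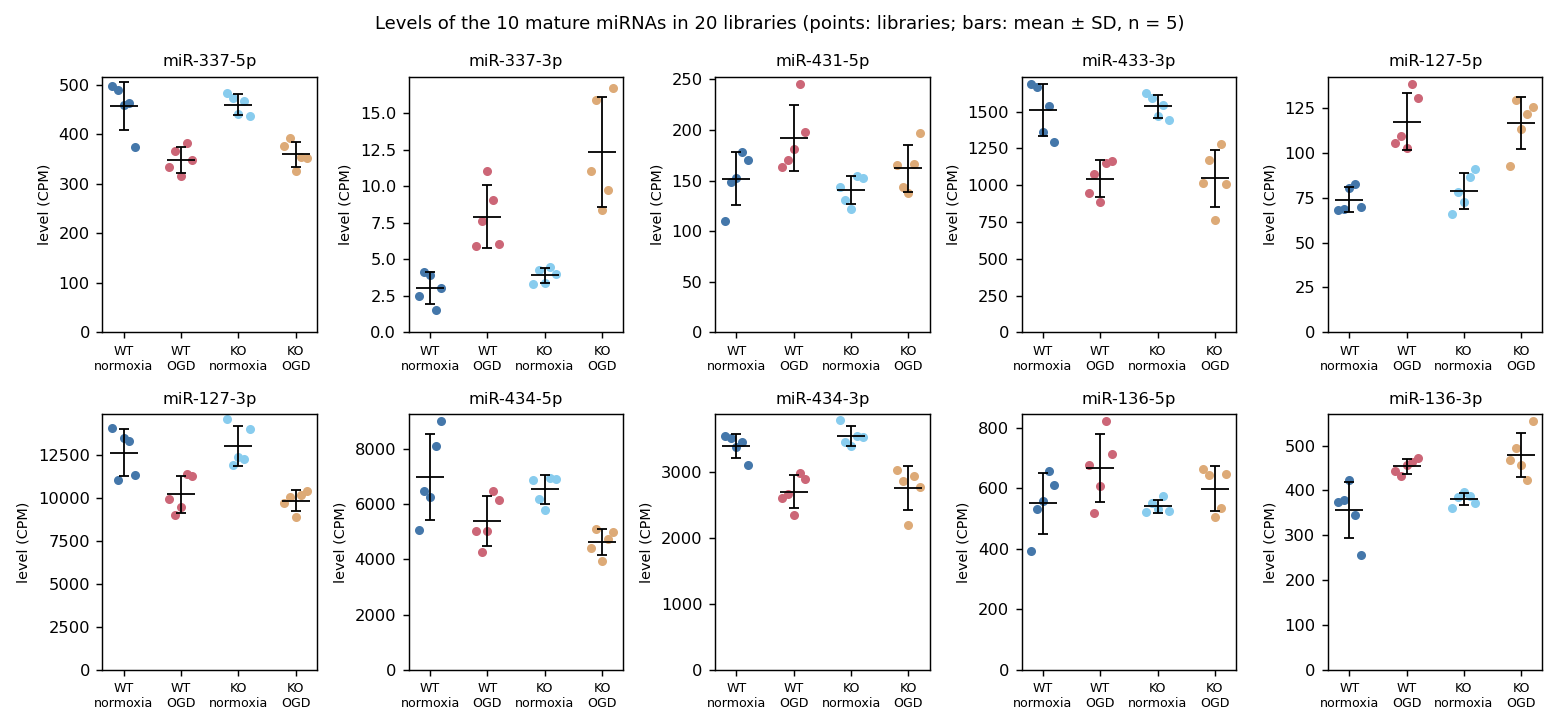
Levels of the 10 members in CPM (vertical axes, each from 0) in the 4 groups, with 1 point per library and bars for mean ± SD. The OGD points of miR-433-3p and miR-434-3p lie below all normoxia points in both genotypes, and those of miR-337-3p and miR-127-5p lie above them.

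The comparison of OGD with normoxia asks how the locus responds to a lack of oxygen and glucose in each genotype. In wild-type neurons the abundant arms miR-433-3p and miR-434-3p fell, and so did miR-127-3p and miR-337-5p, by 0.31 to 0.53 on the log2 scale. The arms miR-127-5p, miR-337-3p and miR-136-3p rose under the authors' library scaling, but on libraries centred on their median none of these was called and miR-136-3p turned to a negative difference. In the knockout the same 7 members passed the test in the same directions, miR-434-5p fell as well, and miR-136-3p was again negative on centred libraries. The members of 1 hairpin thus moved in opposite directions for miR-127 and for miR-337, with the common arm lower and the rare arm higher, under the authors' scaling.

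All differences here are from limma on log2(CPM + 0.5), adjusted by Benjamini-Hochberg over all features with a threshold of 0.05. In wild type 7 of the 10 members were called, 3 higher and 4 lower, against 23.1% of all features called, 18.7% higher and 4.4% lower. In the knockout 8 of the 10 were called, 3 higher and 5 lower, against 24.5% of all features, 18.8% higher and 5.75% lower. Calls are more frequent among abundant features, whose mean log2 CPM reached 3 or more: 201 of 425 were called in wild type and 225 of 420 in the knockout. The groups did not overlap for 5 of the 10 members in wild type, against 16% of all features, and for 8 of 10 in the knockout, against 19.1%. The median log2 difference of the members was -0.01 in wild type and -0.11 in the knockout, where the median of all features was 0.32 and 0.24.

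How libraries are scaled mattered for these directions. Centring each library on the median of its abundant features lowered every OGD difference by 0.56 in wild type and 0.51 in the knockout, and quantile normalization lowered the median by 0.33 and 0.29. The median difference of the abundant features was 0.22 and 0.20 before centring and -0.34 and -0.31 after it, so a centred value near -0.3 is typical of them. After centring, 5 of the 10 members were called in wild type, all lower, and 8 in the knockout, 7 lower and 1 higher. Beside them, 373 of 1478 features in all and 253 of 425 abundant features were called in wild type. In the knockout these were 436 of 1479 and 256 of 420. Over all features the calls then split into 108 higher and 265 lower in wild type, against 276 and 65 under the authors' factors, and into 112 and 324 in the knockout, against 278 and 85. CPM are shares of a library, so these data do not measure RNA per cell. In bulk samples, fewer cells of a type and less RNA per cell cannot be told apart.

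**Figure D3:**
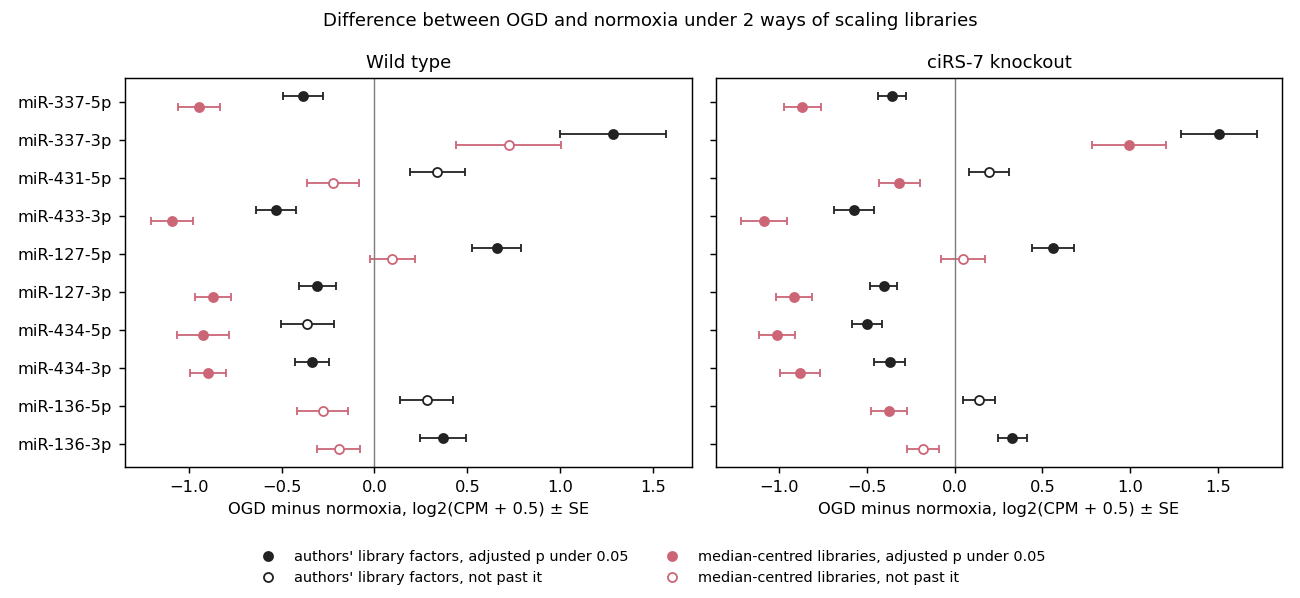
Difference between OGD and normoxia for each member, in log2(CPM + 0.5) with its standard error (horizontal axis), in wild type and in the ciRS-7 knockout, under the authors' library factors (black) and on median-centred libraries (red), with filled points for an adjusted p under 0.05. The values for miR-433-3p, miR-434-3p, miR-434-5p, miR-127-3p and miR-337-5p are below 0 under both scalings in both genotypes. Those of miR-136-3p, miR-136-5p and miR-431-5p lie on opposite sides of 0.

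Among the common arms, miR-433-3p had the largest fall in both genotypes. Its level was 1687, 1663, 1359, 1538 and 1294 CPM in wild-type normoxia and 948, 1073, 885, 1154 and 1164 CPM after OGD. In the knockout it was 1627, 1592, 1472, 1542 and 1443 CPM in normoxia and 1013, 1171, 764, 1278 and 1006 CPM after OGD. Every OGD library was below every normoxia library of its genotype. The log2 difference was -0.53 (SE 0.11, limma adjusted p = 0.00139) in wild type and -0.57 (SE 0.11, limma adjusted p = 0.000986) in the knockout. It was called under all 20 alternatives in both genotypes, with a wild-type value of -0.58 without wild-type normoxia replicate 5 (limma adjusted p = 0.000233).

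miR-434-3p comes from a hairpin whose arms are both abundant, and it showed the same separation. It stood at 3553, 3521, 3378, 3451 and 3101 CPM in wild-type normoxia and at 2614, 2663, 2353, 2982 and 2894 CPM after OGD. In the knockout the levels were 3794, 3462, 3392, 3544 and 3530.1 CPM in normoxia and 3028, 2867, 2189, 2937 and 2767 CPM after OGD. The groups did not overlap in either genotype. It fell by 0.34 on the log2 scale in wild type (SE 0.09, limma adjusted p = 0.011) and by 0.37 in the knockout (SE 0.09, limma adjusted p = 0.00453), and was called under all 20 alternatives in both. The wild-type value was -0.37 without wild-type normoxia replicate 5 (limma adjusted p = 0.00355).

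Its partner miR-434-5p varied more between wild-type libraries. Its level was 5068, 6476, 6266, 8101 and 8992 CPM in wild-type normoxia and 5006, 4269.8, 5039.8, 6480.1 and 6148 CPM after OGD, and the groups overlapped. The wild-type difference of -0.36 (SE 0.14) did not pass the test (limma adjusted p = 0.0791), but was called lower under 8 of 20 alternatives. Among them were centred libraries (-0.92, limma adjusted p = 6.12e-05), quantile normalization (-0.35, limma adjusted p = 0.0366), median-of-ratios factors (-0.64, limma adjusted p = 0.00173), the deposited values (limma adjusted p = 0.037), voom (-0.34, limma adjusted p = 0.0422) and the fit without wild-type normoxia replicate 1 (-0.47, limma adjusted p = 0.0354). Without wild-type normoxia replicate 5 it was -0.26 (limma adjusted p = 0.163). Each wild-type OGD library was below the normoxia library of the same number, and fits with a replicate block, given below, also called miR-434-5p lower in wild type. In the knockout, where it stood at 6864, 6192, 5787, 6954 and 6889.5 CPM in normoxia and 4420.1, 5108, 3943, 4729 and 4979.9 CPM after OGD, the groups were separate and the level fell by 0.50 (SE 0.09, limma adjusted p = 0.000317). The difference between the genotypes in this response was tested and did not pass, as given below.

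miR-127-3p, the most abundant member and an exact complement of Rtl1, fell in both genotypes. Its level was 14090.0, 11039, 13518, 13317 and 11346 CPM in wild-type normoxia and 9938, 9015, 9466, 11420.0 and 11280.0 CPM after OGD. In the knockout it was 14598, 11946, 12415, 12314 and 14027 CPM in normoxia and 9707, 10055, 8885, 10198 and 10424 CPM after OGD. The groups overlapped in wild type, where 3 OGD libraries lay below all normoxia libraries, and were separate in the knockout. It fell by 0.31 (SE 0.10, limma adjusted p = 0.0314) in wild type and by 0.40 (SE 0.08, limma adjusted p = 0.000955) in the knockout. The wild-type call was lost when any of wild-type normoxia replicates 1, 3 and 4 or OGD replicates 1, 2 and 3 was left out. The limma adjusted p was then 0.0683 to 0.0867. Over all fits without 1 library the difference stayed between -0.36 and -0.26. The call was also lost after thinning to equal depth (-0.31, limma adjusted p = 0.061) and quantile normalization (-0.17, limma adjusted p = 0.227). Without wild-type normoxia replicate 5 the difference was -0.35 (limma adjusted p = 0.0133).

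The 5p arm of the same hairpin moved the other way. miR-127-5p stood at 68.0, 68.7, 80.5, 82.6 and 69.5 CPM in wild-type normoxia and at 105, 109, 103, 138 and 131 CPM after OGD. In the knockout it stood at 66.0, 78.1, 72.8, 86.2 and 91.0 CPM in normoxia and at 92.7, 129, 113, 122 and 125 CPM after OGD. Every OGD library was above every normoxia library of its genotype. The log2 difference was 0.66 (SE 0.13, limma adjusted p = 0.00099) in wild type and 0.56 (SE 0.12, limma adjusted p = 0.00202) in the knockout, and it was not called on centred libraries, where it was 0.10 (limma adjusted p = 0.627) and 0.05 (limma adjusted p = 0.81), nor after quantile normalization (0.07 and 0.11). With median-of-ratios factors the knockout value was 0.27 and was not called (limma adjusted p = 0.122). The wild-type value was 0.64 without wild-type normoxia replicate 5 (limma adjusted p = 0.000853).

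miR-337 showed the same opposition with the arms exchanged, since its 5p arm is the common one. miR-337-5p stood at 498, 490.0, 459, 464 and 375 CPM in wild-type normoxia and at 334, 366, 315, 381.8 and 347 CPM after OGD. In the knockout it stood at 483, 473, 441, 468 and 437 CPM in normoxia and at 376.5, 392, 326, 354 and 352 CPM after OGD. The knockout groups were separate, and in wild type only normoxia replicate 5 reached into the OGD range. It fell by 0.39 in wild type (SE 0.11, limma adjusted p = 0.0139) and by 0.36 in the knockout (SE 0.08, limma adjusted p = 0.00297). The wild-type call was lost without wild-type normoxia replicate 2 (-0.36, limma adjusted p = 0.0501) and the difference was -0.46 without replicate 5 (limma adjusted p = 0.00109).

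miR-337-3p was the rarest member, with 8 to 48 reads in a library. Its level was 2.50, 4.12, 3.96, 1.51 and 3.02 CPM in wild-type normoxia and 5.90, 7.63, 11.0, 9.04 and 6.02 CPM after OGD. In the knockout it was 3.33, 4.27, 3.41, 4.49 and 4.01 CPM in normoxia and 11.1, 15.9, 8.38, 9.72 and 16.7 CPM after OGD. All OGD libraries were above all normoxia libraries of their genotype. The log2 difference was 1.28 in wild type (SE 0.29, limma adjusted p = 0.00265) and 1.51 in the knockout (SE 0.21, limma adjusted p = 4.76e-05), the largest among the members in both. With all libraries thinned to the depth of the shallowest, the wild-type value was 0.79 and was not called (limma adjusted p = 0.238). It was 1.30 without wild-type normoxia replicate 5 (limma adjusted p = 0.00262). On centred libraries the wild-type value was 0.72 (limma adjusted p = 0.0693) and the knockout value 1.00 (limma adjusted p = 0.000953). After quantile normalization the wild-type value was 0.67 and was not called (limma adjusted p = 0.113).

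Both arms of miR-136 were present at similar levels. miR-136-3p stood at 375, 379, 423, 345 and 257 CPM in wild-type normoxia and at 443, 431.1, 456, 464 and 473 CPM after OGD. In the knockout it stood at 361, 385, 396, 387 and 372 CPM in normoxia and at 468, 494.3, 456, 424 and 554 CPM after OGD. The groups were separate in both genotypes, with differences of 0.37 (SE 0.12, limma adjusted p = 0.0374) and 0.33 (SE 0.08, limma adjusted p = 0.00836), but both turned negative on centred libraries, at -0.19 and -0.18, less negative than the median of abundant features, and were then not called. Nor were they called with median-of-ratios factors (0.090, limma adjusted p = 0.638, and 0.039, limma adjusted p = 0.784) or quantile normalization (0.16, limma adjusted p = 0.352, and 0.19, limma adjusted p = 0.0676). The wild-type call held in only 1 of 10 fits that left out a library, the fit without wild-type normoxia replicate 3, and without replicate 5 the difference was 0.26 (limma adjusted p = 0.0556). Over these 10 fits the difference ran from 0.26 to 0.44. The wild-type call was also lost after thinning, where the difference was 0.35 (limma adjusted p = 0.0772).

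miR-136-5p and miR-431-5p did not pass the test without a replicate block in either genotype on recovered reads under the authors' scaling, and both were called lower in the knockout on centred libraries. miR-136-5p ranged from 391 to 657 CPM in wild-type normoxia and from 519 to 822 CPM after OGD, and from 521 to 573 CPM and 503 to 664 CPM in the knockout. Its log2 differences were 0.28 (SE 0.14, limma adjusted p = 0.171) and 0.14 (SE 0.09, limma adjusted p = 0.304), and they were -0.28 and -0.37 on centred libraries, where the knockout value was called lower (limma adjusted p = 0.00892). miR-431-5p ranged from 110.1 to 178 CPM and from 163 to 245 CPM in wild type, and from 122 to 155 CPM and 138 to 197 CPM in the knockout. Its differences of 0.34 (SE 0.15, limma adjusted p = 0.11) and 0.20 (SE 0.11, limma adjusted p = 0.23) became -0.22 (limma adjusted p = 0.282) and -0.31 on centred libraries, where the knockout value was called lower (limma adjusted p = 0.04997). On the deposited values the wild-type difference of miR-431-5p was called higher (limma adjusted p = 0.0388), and each wild-type OGD library was above the normoxia library of the same number. Without wild-type normoxia replicate 5 the wild-type values were 0.33 for miR-136-5p (limma adjusted p = 0.109) and 0.38 for miR-431-5p (limma adjusted p = 0.062). The groups of these members overlapped throughout.

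The ratio of the 3p to the 5p arm within a hairpin does not depend on how libraries are scaled, because both arms are read in the same library. For miR-127 and miR-337 this ratio differed between OGD and normoxia in both genotypes, always with the rarer arm gaining. With all reads used, the ratios of miR-136 and miR-434 did not pass the test in any comparison. Ratios are mean log2 values with 0.5 reads added to both arms, compared by exact two-sided permutation tests and adjusted over 16 tests, where the smallest p that 5 against 5 libraries allow is 0.00794.

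The 3p arm of miR-127 made up 99.52%, 99.38%, 99.41%, 99.38% and 99.39% of its reads in wild-type normoxia and 98.95%, 98.80%, 98.93%, 98.80% and 98.86% after OGD. In the knockout the shares were 99.55%, 99.35%, 99.42%, 99.31% and 99.36% in normoxia and 99.05%, 98.73%, 98.75%, 98.82% and 98.81% after OGD. The groups were separate in both genotypes. The log2 ratio differed by -0.97 in wild type (SE 0.08) and by -0.97 in the knockout (SE 0.14), each with an exact permutation p of 0.00794 and an adjusted p of 0.0317.

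The 3p arm of miR-337 made up 0.50%, 0.83%, 0.86%, 0.32% and 0.80% of its reads in wild-type normoxia and 1.73%, 2.04%, 3.39%, 2.31% and 1.70% after OGD. In the knockout the shares were 0.68%, 0.90%, 0.77%, 0.95% and 0.91% in normoxia and 2.85%, 3.89%, 2.51%, 2.67% and 4.54% after OGD. No OGD library reached down to a normoxia library of its genotype. The log2 ratio differed by 1.82 in wild type (SE 0.33) and by 1.98 in the knockout (SE 0.19), with an exact permutation p of 0.00794 and an adjusted p of 0.0317 for each. After thinning to the shallowest library the wild-type value was 1.21 and missed the threshold (exact permutation test, adjusted p = 0.0762).

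For miR-136 the ratio differed by 0.09 in wild type (SE 0.23, adjusted exact permutation p = 0.779) and by 0.19 in the knockout (SE 0.07, adjusted exact permutation p = 0.0762). After thinning to the shallowest library the knockout value was 0.28 and passed the test (adjusted exact permutation p = 0.0317). For miR-434 it differed by 0.03 (SE 0.19, adjusted exact permutation p = 0.913) and 0.13 (SE 0.07, adjusted exact permutation p = 0.198). The other arms of miR-431 and miR-433 are no members, and their ratios were added after the data had been seen. Adjusted over all 24 tests, the ratio of miR-433 differed by -0.60 in wild type (SE 0.15, adjusted exact permutation p = 0.0381) and by -0.34 in the knockout (SE 0.14, adjusted exact permutation p = 0.136). That of miR-431 differed by 0.17 (SE 0.20, adjusted exact permutation p = 0.582) and 0.25 (SE 0.15, adjusted exact permutation p = 0.249).

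**Figure D4:**
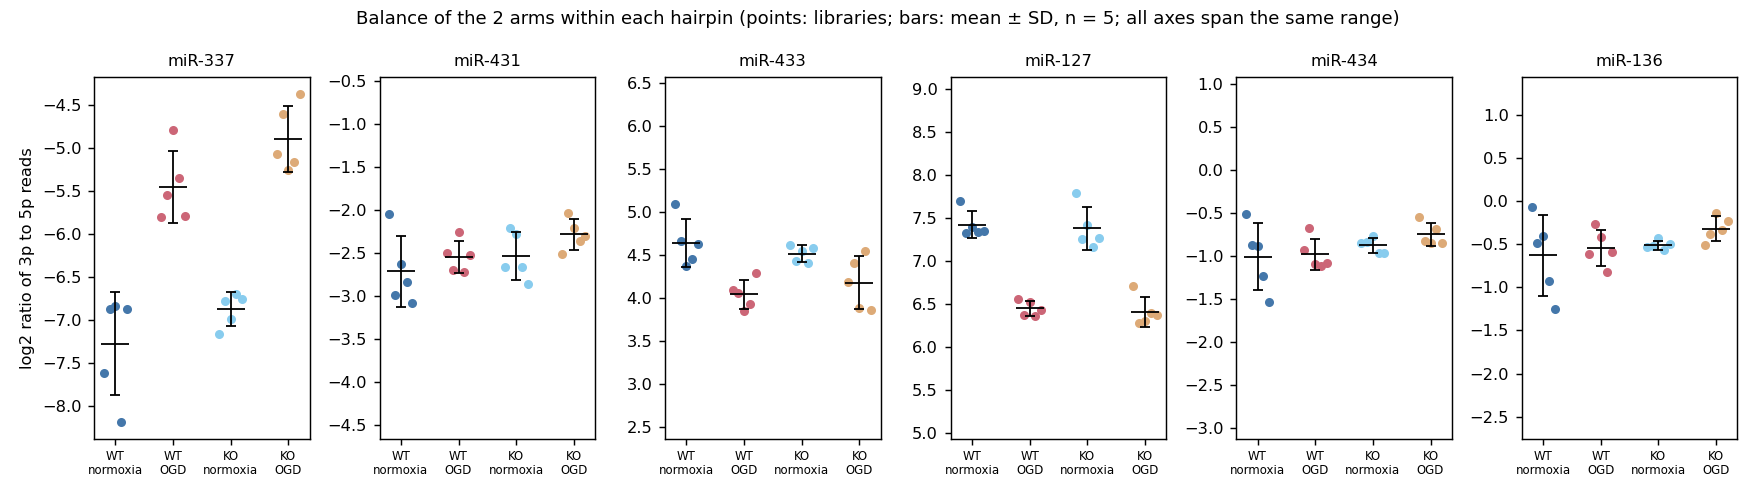
Log2 ratio of 3p to 5p reads (vertical axes, all spanning the same range) for the 6 hairpins in the 4 groups, with 1 point per library and bars for mean ± SD. The OGD points of miR-127 lie below and those of miR-337 above all normoxia points in both genotypes, while miR-434 and miR-136 overlap.

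Without wild-type normoxia replicate 5 the wild-type arm differences were -0.99 for miR-127, 1.92 for miR-337, -0.070 for miR-136 and -0.11 for miR-434, and 4 against 5 libraries cannot pass the adjusted exact test.

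A separation of arm ratios was common in these libraries. Of 95 hairpins with at least 10 reads of both arms in every library, 41.1% had separate OGD and normoxia groups in wild type and 48.4% in the knockout. The set holds 5 of the 6 hairpins described here and leaves out miR-337, whose rarer arm had fewer reads. The rarer arm gained in 52 of the 95 in wild type and in 55 in the knockout, with median log2 changes of 0.10 and 0.09. The gain of miR-127-5p ranked 13 in wild type and 15 in the knockout, and the gain of miR-433-5p ranked 23 and 36. The values for miR-431, miR-136 and miR-434 ranked from 40 to 51.

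**Figure D5:**
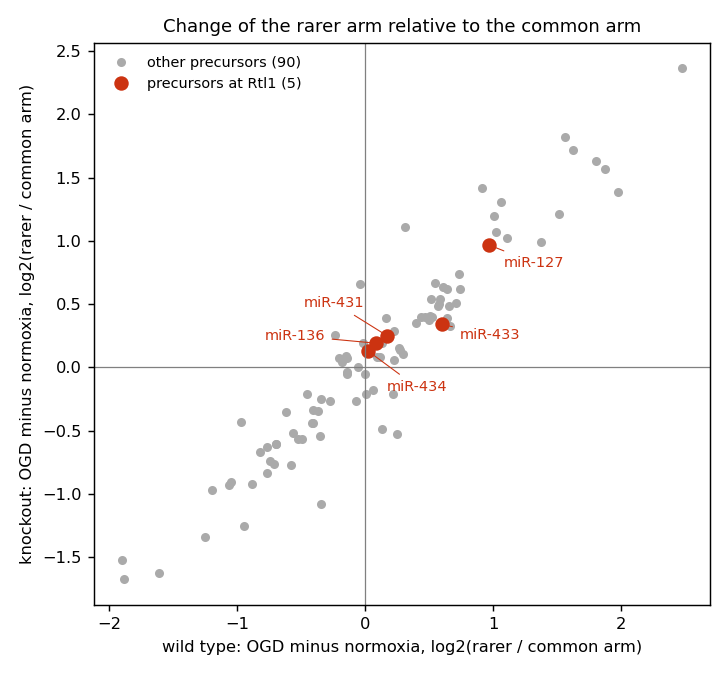
Change of the log2 ratio of the rarer to the common arm between OGD and normoxia, in wild type (horizontal axis) and in the knockout (vertical axis), for 95 hairpins, with 5 hairpins at Rtl1 in red. miR-127 is at 0.97 in both genotypes, inside the range of the other hairpins.

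The comparison of knockout with wild type asks whether the members depend on ciRS-7. None of the 10 members was called in normoxia or after OGD, and neither was any other feature (0% of 1481), while 47 features in normoxia and 108 after OGD had an unadjusted p under 0.05. With limma voom on the recovered reads the count of calls was also 0 in both, and on the deposited values it was 33 and 72, none of them a member. The groups of all 10 members overlapped between genotypes in both conditions, where those of 0.54% of all features in normoxia and 0.945% after OGD did not. In normoxia the log2 differences of the members ran from -0.10 to 0.37. The difference for miR-127-3p was 0.05, with an interval of 2 standard errors from -0.14 to 0.24. That for miR-433-3p was 0.03, with an interval from -0.15 to 0.21.

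After OGD the members' differences between genotypes ran from -0.24 for miR-431-5p to 0.60 for miR-337-3p. miR-337-3p was at 7.93 ± 2.17 CPM (SD, n = 5) in wild type and 12.4 ± 3.74 CPM in the knockout, and the groups overlapped. Its limma p was 0.0258 before and 0.565 after adjustment, with an interval from 0.09 to 1.11. For miR-434-5p the difference was -0.21 (limma adjusted p = 0.659), and for miR-127-3p it was -0.05, with an interval from -0.23 to 0.13. The arm ratios did not differ between the genotypes under the test in either condition: that of miR-337 after OGD was 0.56 higher in the knockout (SE 0.25, adjusted exact permutation p = 0.145).

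Whether OGD acted differently in the genotypes was tested by an interaction term over all 20 libraries. It was called for 0 of 1481 features, 74 of which had an unadjusted p under 0.05 in limma. The members' interaction values ran from -0.14 for miR-136-5p to 0.22 for miR-337-3p, and all had a limma adjusted p of 0.99. For miR-434-5p, called in the knockout but in wild type only under some alternatives, the interaction was -0.14 (SE 0.18). The change of the arm ratio differed between the genotypes by 0.0042 for miR-127 (SE 0.16, permutation p = 0.977) and by 0.16 for miR-337 (SE 0.38, permutation p = 0.718).

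Members also varied together within groups, but not as 1 unit. Over the 20 libraries, with each group's mean subtracted, the median Pearson correlation of the 45 member pairs was 0.24, with a range from -0.34 to 0.86, where the median over all pairs of abundant features was 0.04. The highest values were 0.86 for miR-433-3p with miR-434-3p, 0.83 for miR-434-5p with miR-136-5p and 0.82 for miR-431-5p with miR-434-5p. The lowest was -0.34 for miR-434-5p with miR-136-3p, and the arms of miR-136 correlated at -0.01. Features of 1 library share its depth and scaling, so these values are a description. Among 414 other features, those most like miR-127-3p by this measure were miR-331-3p (0.79), miR-3074-5p (0.66), miR-140-3p, miR-6390 and miR-1843a-5p (each 0.64).

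The domain holds further miRNAs around these hairpins and in a cluster named after the transcript Mirg. Of 23 other mature forms near Rtl1, 5 were higher and 3 lower after OGD in wild type and 6 were higher and 3 lower in the knockout, with median log2 differences of 0.13 and -0.10. These 23 forms include the other arms of miR-431 and miR-433, from the members' own hairpins, and miR-3071, whose hairpin lies opposite that of miR-136. Under the authors' scaling the largest called difference of an abundant form was that of miR-540-5p, at 2.42 (SE 0.25, limma adjusted p = 9.69e-07) in wild type and 1.80 (SE 0.20, limma adjusted p = 3.08e-06) in the knockout. Of 72 forms of the Mirg cluster, 13 were higher and 7 lower in wild type and 14 were higher and 10 lower in the knockout, with medians of 0.14 and 0.02. These are 8 of 23 and 20 of 72 forms called in wild type and 9 of 23 and 24 of 72 in the knockout, beside 23.1% and 24.5% of all features tested, whose medians were 0.32 and 0.24. Among abundant forms alone, 6 of 12 near Rtl1 and 18 of 43 of Mirg were called in wild type, beside 201 of all 425, and 7 of 12 and 18 of 41 in the knockout, beside 225 of all 420, so nothing is read from these counts about either list. In Mirg the largest was the fall of miR-410-5p, with values of -3.32 (SE 0.31, limma adjusted p = 3.56e-07) and -3.52 (SE 0.29, limma adjusted p = 1.63e-07). On centred libraries the largest called difference of an abundant form near Rtl1 in the knockout was that of miR-370-3p, at -1.68 (SE 0.12, limma adjusted p = 2.81e-09), and in wild type still that of miR-540-5p. The centred split near Rtl1 became 3 higher and 8 lower in wild type and 3 higher and 9 lower in the knockout, and that of Mirg 5 higher and 29 lower, and 4 higher and 33 lower, where all features split into 108 higher and 265 lower, and 112 and 324. Of abundant forms, 27 of 43 in Mirg were then called in wild type and 30 of 41 in the knockout, beside 253 of 425 and 256 of 420 over all. No form of either list was called between the genotypes.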

How the data were processed

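Small RNA reads of 20 libraries were used as 6 deposited tables, 1 for each pair of groups. The tables that cross genotype and condition entered the recovery of reads and library factors, and no comparison was fitted on them. Per the submitters' processing notes the build was mm10; the aligner and the counting are not given in the sources used here. The deposited values are described as log CPM, but a log2 CPM cannot exceed 19.9 and the tables reached 35.8 to 37.3, so they are treated as a score made by the authors. From the values alone, each score was a whole read count times a library factor, raised to a power of 0.106 to 0.118, with the extremes of each feature and group limited at quantiles 0.16 and 0.84. Undoing this gave whole reads for 100% of values (largest distance 6.47e-08), the same in all tables (59070 comparisons, 0 differences). The recovery was checked on simulated tables.

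CPM used the authors' library factors, 0.923 to 1.08 times the totals. limma 3.58.1 (R 4.3.3, trend) was fitted to log2(CPM + 0.5) of all features, each comparison on its own 10 libraries, with Benjamini-Hochberg adjustment. Fold changes on this scale understate those of rare features. Reads carry no molecular identifiers that the labels mention and may repeat a molecule. No 2 replicates matched within counting noise (chi-square of at least 8.65 per degree of freedom in 40 pairs). Groups and replicate numbers came from the samples' descriptions. Members and lists were chosen with earlier results of these data known; all 10 members are named, plus the largest called form of each list and the 5 features most like miR-127-3p. The cell type markers, the ratios of miR-431 and miR-433 and the set of 95 hairpins were picked once the data were known. Alternatives changed the pseudocount, filter, scaling, depth, tool, block or replicates. Sequences are from RefSeq GRCm38.p6.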

Additional observations from a re-analysis of the deposited data

Results flagged for a closer look

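Of 56 groups of 5 libraries examined for a library far from the others, 2 held one, where chance gives about 1 in 20. The log2 ratio of the 3p to the 5p arm of miR-127 was 7.69 in wild-type normoxia replicate 1, where the nearest library was at 7.39 and the lowest at 7.33. The same ratio was 6.71 in knockout OGD replicate 1, where the nearest library was at 6.39 and the lowest at 6.28. Replicate 1 also had the highest miR-127 ratio in wild-type OGD, at 6.56, and in knockout normoxia, at 7.79, so the high values went with the replicate number. Without wild-type normoxia replicate 1 the OGD difference in wild type was -0.90, and without knockout OGD replicate 1 the difference in the knockout was -1.04.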

How the results depend on the processing

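Features called after OGD numbered 276 higher and 65 lower in wild type and 363 in all in the knockout, in all 693 and 784 with limma voom, and 218 and 231 after thinning. Members called higher numbered 3 in both genotypes; in wild type they were 0 on centred or quantile-normalized libraries and 1 after thinning, and in the knockout 1 on centred, quantile-normalized or median-of-ratios libraries. Between genotypes, 33 features in normoxia and 72 after OGD were called on the deposited values, against 0. After OGD, centring turned miR-431-5p to -0.22, miR-136-5p to -0.28 and miR-136-3p to -0.19 in wild type, and to -0.31, -0.37 and -0.18 in the knockout. Quantile normalization turned miR-431-5p to -0.015 in wild type, and in the knockout it turned miR-431-5p to -0.14 and miR-136-5p to -0.026. Median-of-ratios factors turned these knockout values to -0.094 and -0.15. Thinning moved the arm ratio of miR-136 in the knockout to 0.28 (adjusted exact permutation p = 0.0317) and that of miR-337 in wild type to 1.21 (0.0762). The cause of these changes was not tested.

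Small genotype differences, none called, also changed sign. In normoxia miR-337-5p was -0.023 on centred libraries, -0.0031 with median-of-ratios factors, -0.028 on the deposited values and -0.017 after thinning, miR-433-3p was -0.0066 on centred libraries, and miR-136-5p was 0.0089 with voom and 0.048 after thinning. After OGD miR-433-3p was 0.071 (centred), 0.011 (quantile), 0.019 (median-of-ratios), 0.021 (deposited) and 0.0072 (thinned), miR-127-5p was 0.071 (centred and quantile), 0.019 (median-of-ratios) and 0.031 (deposited), and miR-127-3p was 0.032 (centred) and 0.038 (quantile). The interaction was 0.027 (centred) for miR-433-3p, 0.035 (quantile) for miR-127-5p, 0.035 (centred) and 0.014 (quantile) for miR-434-3p, and 0.030 (centred), 0.032 (quantile) and 0.019 (thinned) for miR-136-3p.

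Same-numbered libraries did not all deviate together (correlations from -0.17 to 0.66 in wild type and from -0.21 to 0.49 in the knockout, with 4 of 5 over 0.1 in each, means of 0.33 and 0.22 against -0.077 and -0.060 for other numbers, and 4 of 5 and 3 of 5 libraries closest to their own number), so the numbers are a hint of pairing but are not treated as pairs. With the replicate block, 389 and 403 features were called, and miR-431-5p (0.34, limma adjusted p = 0.0176) and miR-434-5p (-0.36, limma adjusted p = 0.00382) then passed in wild type. With the block on centred libraries, members called higher were 0 in wild type and 1 in the knockout, with the differences of the centred libraries. Sign-flip tests within the replicate block gave the same arm differences, -0.97 and -0.97 for miR-127 and 1.82 and 1.98 for miR-337, but cannot pass, since their smallest p is 0.0625 (adjusted exact p = 0.2).

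With 1 library left out, features called numbered at least 262 in wild type, never more than with all libraries, and ranged from 293 to 372 in the knockout, members called higher from 2 to 3 in wild type, and lower from 3 to 4. Features called between genotypes after OGD ranged from 0 to 22, the latter without knockout OGD replicate 5, and for the interaction from 0 to 1, the latter without wild-type OGD replicate 1. The arm difference ranged from -0.999 to -0.90 (wild type) and -1.04 to -0.86 (knockout) for miR-127, and from 1.59 to 1.93 and 1.85 to 2.07 for miR-337; 4 against 5 libraries cannot pass after adjustment (0.0508 to 0.0635). Ranges that cross 0, none of them called, were -0.070 to 0.23 for the arm ratio of miR-136 and -0.11 to 0.15 for that of miR-434 after OGD in wild type, and between genotypes in normoxia -0.14 to 0.027 for the ratio of miR-127, -0.038 to 0.26 for miR-136 and -0.0020 to 0.25 for miR-434. Levels between genotypes in normoxia ranged from -0.054 to 0.048 for miR-337-5p, -0.021 to 0.074 for miR-433-3p, -0.00066 to 0.087 for miR-127-3p, -0.18 to 0.029 for miR-434-5p and -0.12 to 0.066 for miR-136-5p. After OGD they ranged from -0.088 to 0.097 for miR-433-3p, -0.055 to 0.069 for miR-127-5p and -0.023 to 0.11 for miR-434-3p. Interactions ranged from -0.0062 to 0.099 for miR-337-5p, -0.12 to 0.066 for miR-433-3p, -0.083 to 0.046 for miR-434-3p and -0.11 to 0.074 for miR-136-3p. Depth limits miR-337-3p most, with 8 reads in its lowest library.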
